A study of Mus musculus with 4 samples.

Results

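The mouse counterparts of 5 genes at human loci for fatty liver risk, Pnpla3, Hsd17b13, Tm6sf2, Mboat7 and Gckr, were followed in spatial transcriptomes of mouse liver. They were found by their symbols among 31253 features, and all 5 were present. The tissue was fresh-frozen liver sectioned for 10x Visium, which reads RNA from barcoded spots on a slide, each covering several cells. Of the 4 sections, MAFL-1 and MAFL-2 came from mice of the model labelled MAFL after 8 weeks on the diet labelled WD, and MASH-1 and MASH-2 from the model labelled MASH after 16 weeks on it. Model and diet length changed together and cannot be told apart, none of the 4 sections came from a mouse without the diet, and genotype, strain, sex and age are not given in the sources used here. The labels also leave unsaid if each section is from its own mouse. P-values between groups thus measure the spread between sections, which may be technical. P-values between zones or classes of spots measure how much their difference varied from section to section, among libraries cut from the same 4 sections.

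After spots under 500 UMIs (unique molecular identifiers, each 1 captured transcript) were left out, the sections held 1862 to 2467 spots and 32249289 to 63808230 UMIs, with a median of 15430.5 to 25291 UMIs per spot. Alb, the hepatocyte product albumin, was seen in 100% of the spots of every section, so no set of spots without hepatocyte RNA was at hand as a background. Pairs of sections shared 1182 to 1725 barcodes, which are those of slide positions. Levels are given as CPM, the UMIs of a gene scaled to the total UMIs of the section or class of spots. Where 4 values are listed without names, they run from MAFL-1 and MAFL-2 to MASH-1 and then MASH-2. Fewer hepatocytes in a spot and less RNA per hepatocyte cannot be told apart in such values.

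As background, all 5 genes act in hepatocyte lipid or sugar handling. PNPLA3 is a patatin-family protein of the lipid droplet surface and its gene is switched on by insulin and carbohydrate feeding together with the fatty acid synthesis genes, and HSD17B13 is a short-chain dehydrogenase that also sits on lipid droplets. TM6SF2 is a membrane protein of the endoplasmic reticulum that helps load very low density lipoprotein (VLDL) with lipid, MBOAT7 is an acyltransferase that attaches arachidonic acid to lysophosphatidylinositol, and GCKR is a regulatory protein of hepatocyte sugar use. The liver lobule runs from the portal vein to the central vein, and hepatocytes along this axis express different genes.

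On the mouse genome (RefSeq, GRCm38.p6), the gene models span chr15:84167776-84189521 for Pnpla3, chr5:103955442-103977388 for Hsd17b13, chr8:70072924-70080066 for Tm6sf2, chr7:3677789-3693189 for Mboat7 and chr5:31297266-31327302 for Gckr, each a protein-coding gene. The stretch just before the gene model is shown for 2 of them, because Hsd17b13 was the member that differed most along the lobule and Pnpla3 the member that was almost undetected. Both are RefSeq sequences, 5′ to 3′ on the strand of the gene, and capitals mark matches on either strand to the core of the TCF/LEF motif, CTTTGA (reverse complement TCAAAG), or to the GC box GGGCGG. TCF/LEF proteins carry out Wnt signalling, which is known to be strongest around the central vein.
Hsd17b13, chr5:103977389-103977638, minus strand: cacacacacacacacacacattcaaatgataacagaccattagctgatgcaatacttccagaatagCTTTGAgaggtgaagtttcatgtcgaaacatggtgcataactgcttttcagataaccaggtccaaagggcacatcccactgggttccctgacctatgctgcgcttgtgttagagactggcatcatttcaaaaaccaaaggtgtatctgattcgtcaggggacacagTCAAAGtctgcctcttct
Pnpla3, chr15:84167566-84167775, plus strand: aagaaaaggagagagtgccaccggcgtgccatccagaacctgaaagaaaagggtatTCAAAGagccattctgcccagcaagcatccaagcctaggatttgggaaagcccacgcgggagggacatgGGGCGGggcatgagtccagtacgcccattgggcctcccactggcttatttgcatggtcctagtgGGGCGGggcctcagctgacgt
The 250 bases before Hsd17b13 hold the TCF/LEF core at 2 places, 184 to 179 and 18 to 13 bases before the gene model, and 13.8% of 32851 promoter windows of that length hold at least 1 such match and 1.37% hold 2 or more. The 210 bases before Pnpla3 hold 1 match to it, as do 12.2% of windows of that length, and 2 GC boxes, where 26.7% of windows hold at least 1 and 11.7% hold 2 or more. The E-box CACGTG was in neither window. The matches are letters found in these windows and were not tested as binding sites.

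Pnpla3 was almost absent from every section. It gave 1 UMI in MAFL-1, 2 in MAFL-2, 7 in MASH-1 and 1 in MASH-2, or 11 UMIs among 178765540. These correspond to 0.0310, 0.0525, 0.110 and 0.0224 CPM, with exact 95% Poisson intervals of 0.000785 to 0.173, 0.00635 to 0.189, 0.0441 to 0.226 and 0.000568 to 0.125, which overlap one another and cover counting error only. MASH-1, the deepest section, held most of the UMIs, while the other MASH section was as low as the MAFL sections. Each UMI lay in a different spot, 11 of 8246 spots, of which 5 were pericentral, 3 in the middle zone and 3 periportal, so no zone preference could be read. Pnpla3 did not pass the filter on low counts, was not tested, and no fold change is given. For comparison, 16083 of 31253 features had 11 UMIs or fewer over all sections, and 12313 of them had none.

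**Figure D1:**
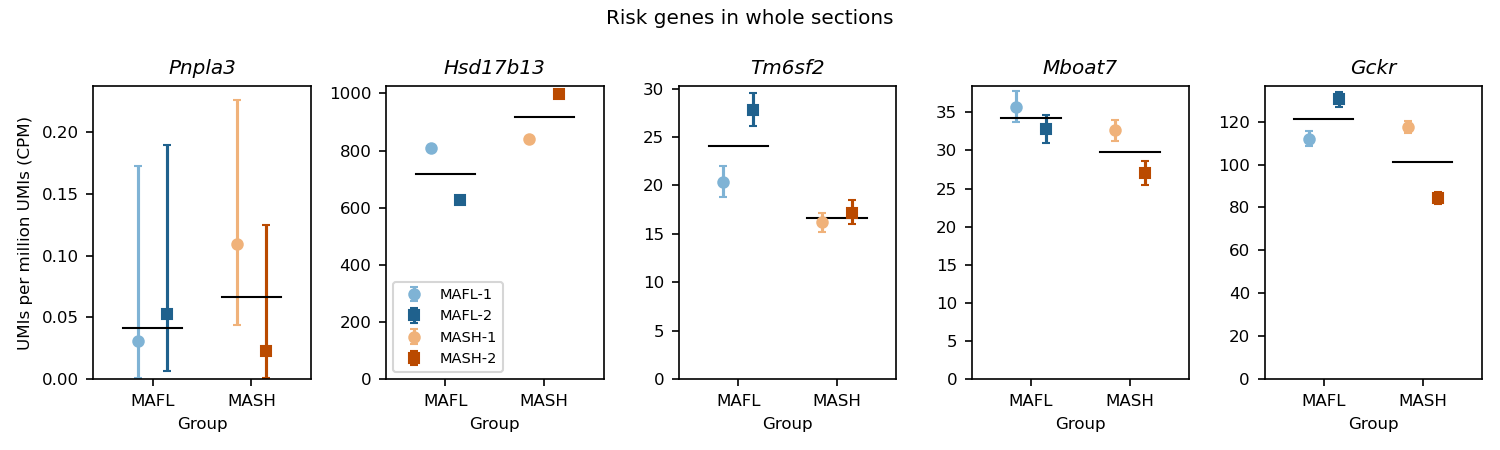
The 5 risk genes in whole sections. Points are CPM of each section (circles, section 1, and squares, section 2) with exact 95% Poisson intervals. Black bars are group means and each panel has its own linear axis from 0. Both MASH sections lie above both MAFL sections for Hsd17b13, as for 34.1% of all genes. They lie below them for Tm6sf2 and Mboat7, as for 18.2%, and Pnpla3 stays at or below 0.110 CPM.

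Some genes around and related to Pnpla3 were well measured and others were sparse. Pnpla2, which encodes the main triglyceride lipase of lipid droplets (ATGL), stood at 107, 133, 111 and 97.1 CPM in the 4 sections. Samm50, the neighbour of Pnpla3 that encodes a mitochondrial outer membrane assembly protein, stood at 89.7, 95.9, 84.7 and 100.04 CPM. Pnpla5, another neighbour from the same family, gave only 2, 3, 20 and 8 UMIs, and Parvb, a further neighbour, stood at 2.20, 2.23, 2.85 and 3.48 CPM. The fatty acid synthesis genes were well above the floor too. Srebf1, encoding the insulin-responsive regulator SREBP-1, was at 73.3, 87.0, 128 and 134 CPM. Fasn, fatty acid synthase, was at 60.4, 63.1, 79.7 and 91.6 CPM, and Thrsp, a lipogenic gene in the series title, at 29.7, 123, 344 and 503 CPM. In all 3 of these genes both MASH sections were above both MAFL sections, as for 34.1% of all genes. None passed the test between groups (edgeR log2 fold change 0.60, 0.37 and 2.34, adjusted p = 0.148, 0.252 and 0.252). Mlxipl, which encodes the carbohydrate-responsive regulator ChREBP, ran the other way, at 164, 133, 92.9 and 59.3 CPM (log2 fold change -1.05, adjusted p = 0.131).

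Between whole sections, none of the 4 tested members passed the edgeR quasi-likelihood test after Benjamini-Hochberg adjustment at 0.05, where 0.456% of 13593 genes did. Hsd17b13 was measured in MAFL at 810 and 628 CPM, and in MASH at 839 and 997 CPM. The MASH sections were the higher ones, a pattern of non-overlap in that direction that 34.1% of all genes showed, and the log2 fold change was 0.25 (95% interval -0.20 to 0.70, SE 0.19, adjusted p = 0.508).

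Tm6sf2 was at 20.3 and 27.8 CPM in MAFL and at 16.2 and 17.2 CPM in MASH. Both MASH sections were lower, as for 18.2% of all genes, with a log2 fold change of -0.64 (95% interval -1.08 to -0.19, SE 0.19, unadjusted p = 0.0115, adjusted p = 0.162). Of the members it had the smallest p in this comparison. Without a filter on low counts it passed at an adjusted p of 0.0148, while over all alternatives the adjusted p ran from 0.0148 to 0.535. The log2 fold change was -0.88 without MAFL-1 and -0.37 without MAFL-2. Mboat7 was at 35.7 and 32.8 CPM in MAFL against 32.6 and 27.01 CPM in MASH, with MAFL-2 and MASH-1 nearly level, and its log2 fold change was -0.29 (95% interval -0.70 to 0.11, adjusted p = 0.393). Gckr was at 112 and 130.3 CPM in MAFL and 117 and 84.5 CPM in MASH. The groups overlapped and MASH-2 alone was low, with a log2 fold change of -0.36 (95% interval -0.89 to 0.18, adjusted p = 0.431). With 1 section left out it ran from -0.70 (without MASH-1) to -0.09 (without MASH-2), that of Mboat7 from -0.52 to -0.11 without the same sections, and that of Hsd17b13 from 0.10 (without MAFL-2) to 0.41 (without MAFL-1).

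Hsd17b11, the closest relative and neighbour of Hsd17b13 and also a lipid droplet protein, was at 398 and 374 CPM in MAFL and 308 and 314 CPM in MASH (adjusted p = 0.246 for a log2 fold change of -0.41), the opposite order to Hsd17b13. Tmc4, the neighbour of Mboat7, stayed between 1.65 and 2.45 CPM. Among 25 other genes reported at human liver risk loci, Pparg, the adipogenic nuclear receptor, rose (log2 fold change 2.23, adjusted p = 0.0298) and the others did not pass. Of 15 tested neighbours of the 5 genes none passed and 1 had a positive log2 fold change, with a median of -0.19 against 0.01 over all genes.

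Other cells than hepatocytes were more visible in the MASH sections. The summed level of 8 monocyte and macrophage genes was 178 and 213 CPM in MAFL and 546 and 631 CPM in MASH, with 3 of the 8 genes passing, and that of 13 genes of lipid-associated macrophages (LAM) was 248, 179, 291 and 692 CPM. The 8 hepatocyte genes summed to between 108282 and 111054 CPM with no order between the groups, and none of them passed. The part of these cells in the group values was not tested.

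Along the lobule, Hsd17b13 was strongly periportal in every section. Spots were ranked within each section by the log2 ratio of Cyp2f2, a periportal cytochrome P450 gene, to Cyp2e1, a pericentral one, each with 1 UMI added, and cut into 3 equal classes, called zones here. As a check of this axis, 10 of 10 other periportal genes rose in the periportal zone and 10 of 10 other pericentral genes fell. From the pericentral through the middle to the periportal zone, Hsd17b13 was at 413, 821 and 1198 CPM in MAFL-1 and at 327, 583 and 918 CPM in MAFL-2. It was at 336, 607 and 1376 CPM in MASH-1 and at 515, 841 and 1321 CPM in MASH-2. It thus climbed at each step in 4 of 4 sections, and the lowest periportal value lay above the highest pericentral one. The periportal zone was 3.13-fold above the pericentral (log2 fold change 1.65, 95% interval 1.43 to 1.86, SE 0.09, adjusted p = 6.8e-07), in a comparison in which 23% of 12577 genes passed and 11.3% passed upward. Its log2 fold change exceeded that of 99.6% of the genes tested.

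**Figure D2:**
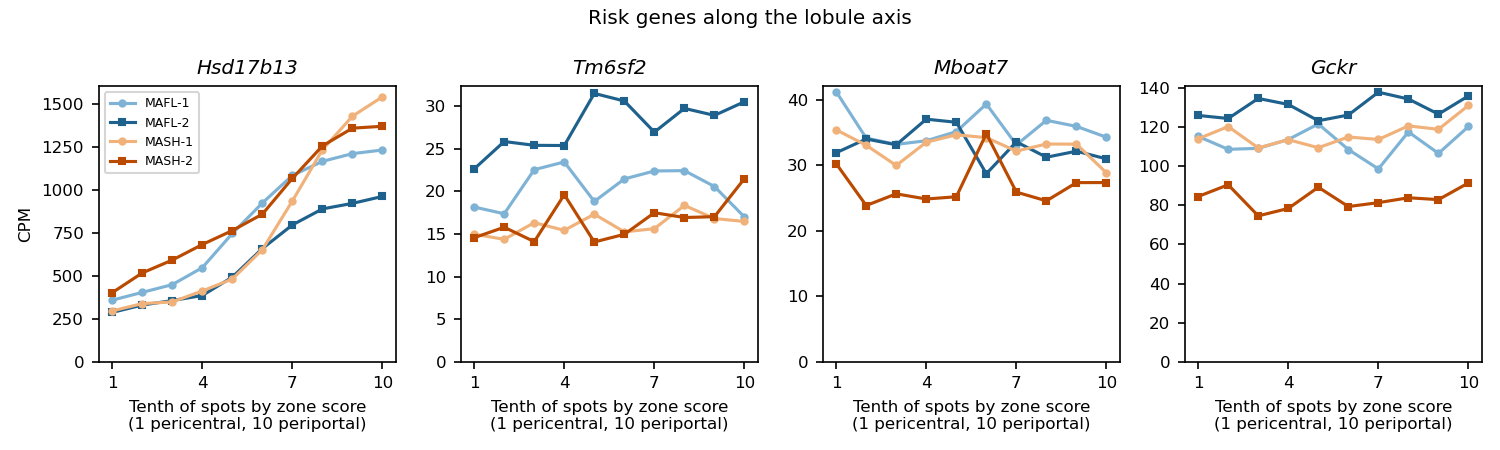
Risk genes along the lobule axis. CPM of each section (lines) over 10 equal classes of its spots ranked by zone score, from class 1 (pericentral) to class 10 (periportal), each panel with its own linear axis from 0; Hsd17b13 rises from 286 to 401 CPM in class 1 to 961 to 1540 CPM in class 10, while Tm6sf2, Mboat7 and Gckr vary less, with class 10 over class 1 ratios of 0.94 to 1.48, 0.81 to 0.97 and 1.04 to 1.15.

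The periportal spots were also the deeper ones in 3 of 4 sections, with a median of 33004.5 against 22896 UMIs in MASH-1, 34042 against 15755 in MASH-2, 22462 against 18560 in MAFL-2, and 15505 against 15631 in MAFL-1. With every spot thinned to 5000 UMIs, Hsd17b13 still ranked with the zone score over single spots, with a Spearman rho of 0.617, 0.561, 0.680 and 0.599 in the 4 sections, given as a description since spots of a section are not replicates. Over 17 alternatives to the fit, thinning and ranking within bins of depth included, its log2 fold change ran from 1.34 to 1.83 with an adjusted p of at most 0.00274. The periportal zone held 50.1, 55.0, 66.5 and 64.9% of the Hsd17b13 UMIs of the 4 sections, against 33.8, 37.6, 40.5 and 49.0% of all UMIs. Over single spots the pericentral and periportal zones were well apart. The share of pericentral spots that reached the median periportal level was 0% in MAFL-1 and MASH-1, 0.159% in MAFL-2 and 0.322% in MASH-2. Of middle-zone spots, 14.2, 9.57, 0.851 and 5.65% reached it in the 4 sections.

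**Figure D3:**
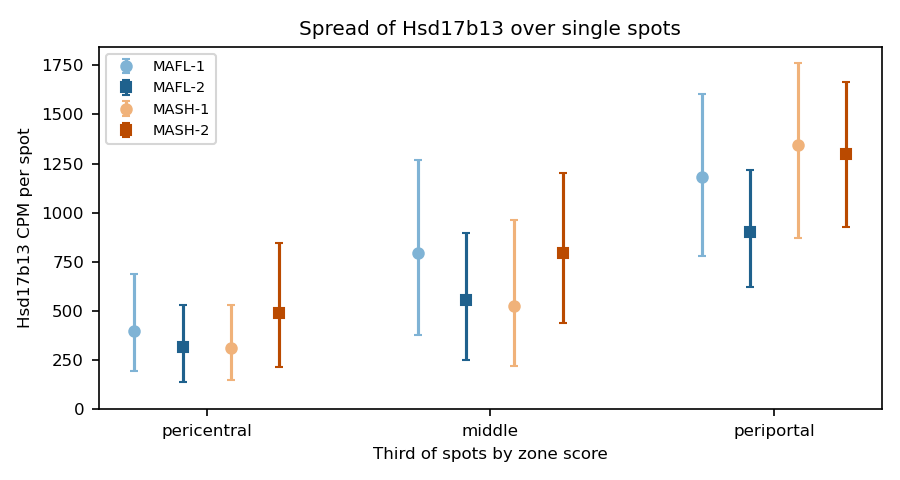
Spread of Hsd17b13 over single spots. Points are the median CPM over the spots of each zone of each section and bars run from the 10th to the 90th percentile of spots, on a linear axis; the periportal medians, 902 to 1344 CPM, lie above every pericentral 90th percentile, 530.4 to 843 CPM.

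The other members differed little along the lobule. Tm6sf2 rose in the periportal zone by a small margin: from the pericentral through the middle to the periportal zone it was at 19.4, 21.8 and 19.9 CPM in MAFL-1, 24.4, 29.6 and 29.3 in MAFL-2, 14.99, 16.04 and 17.1 in MASH-1, and 14.9, 16.2 and 18.9 in MASH-2. The periportal zone was above the pericentral in 4 of 4 sections and the middle zone was the highest in both MAFL sections. The fitted difference was 1.19-fold (log2 fold change 0.25, 95% interval 0.11 to 0.39, adjusted p = 0.0077). The call was lost without MAFL-2 (adjusted p = 0.0552), without MASH-2 (adjusted p = 0.0964), in the MAFL sections alone (adjusted p = 0.229), with spots thinned to 5000 UMIs (adjusted p = 0.253) and with DESeq2 (adjusted p = 0.0865), with the log2 fold change between 0.17 and 0.32 over all alternatives.

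Gckr was at 112, 110.0 and 114 CPM in the 3 zones of MAFL-1, 128, 127 and 135 in MAFL-2, 115, 111 and 124 in MASH-1, and 82.4, 82.4 and 86.7 in MASH-2. It was highest in the periportal zone of 4 of 4 sections, a pattern of periportal above pericentral that 12.7% of genes had, but the difference of 1.07-fold did not pass (log2 fold change 0.10, 95% interval 0.01 to 0.19, adjusted p = 0.0927). With only genes of at least 20 CPM it passed, at an adjusted p of 0.0189. Mboat7 showed the least difference between zones, with periportal over pericentral ratios of 0.984, 0.962, 0.965 and 0.994 (log2 fold change -0.0047, 95% interval -0.12 to 0.11, adjusted p = 0.966).

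Lists chosen for the role of each member were counted along the lobule, where 23% of all genes tested passed and 11.3% of all genes tested passed upward. Around Gckr, 13 of 24 genes of glucose and fructose handling rose in the periportal zone and 3 fell, with a median log2 fold change of 0.18 against 0.01 over all genes. Among those with the smallest p were Pck1, the gluconeogenic carboxykinase (0.62), Tkfc, the triokinase of fructose breakdown (0.55), and Fbp1, fructose bisphosphatase (0.48), all above pericentral in 4 of 4 sections. Around Pnpla3, 8 of 18 genes of triglyceride breakdown and the droplet surface fell in the periportal zone and 1 rose, with a median of -0.19. The droplet proteins Cidea (-2.96) and Plin4 (-1.15) led the list, followed by the fat storage protein Fitm2 (-0.48) and the lysosomal lipase Lipa (-0.30), and Pnpla2 fell slightly (-0.21, adjusted p = 3.1e-04).

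Among 22 lipogenic genes, 4 rose periportally and 4 fell, and the regulators split, with Srebf1 at 0.27 (adjusted p = 0.0122) and Mlxipl at -0.21 (adjusted p = 4.4e-04). Acly, which makes cytosolic acetyl-CoA, rose by 0.86, Scd1, the stearoyl-CoA desaturase, had a log2 fold change of -0.25, and Fasn had one of 0.00 (adjusted p = 0.962). Around Hsd17b13, 5 of 19 tested genes of short-chain dehydrogenases and retinoid handling rose periportally and 9 fell. Hsd17b6, an enzyme of steroid and retinol oxidation, rose with Hsd17b13 (1.59), whereas the retinol dehydrogenase Rdh16 (-0.96), the retinal dehydrogenase Aldh1a1 (-0.40) and Hsd17b11 (-0.40, adjusted p = 3.9e-07) were pericentral in 4 of 4 sections. Hsd17b13 and its neighbour Hsd17b11 thus changed in opposite directions along the lobule, Hsd17b11 by much less (-0.40 against 1.65).

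Around Tm6sf2, 6 of 22 genes of VLDL assembly and lipoproteins rose periportally and 3 fell, with Apoc2 (0.78), Apoa4 (0.88) and Apoc3 (0.25), 3 apolipoprotein genes, in front. Apob, the structural protein of VLDL, was slightly periportal (0.14, adjusted p = 0.029) and Mttp, which transfers lipid to it, showed no difference beyond its spread (-0.03, adjusted p = 0.717). Around Mboat7, 2 of 24 tested genes of acyl chain remodelling and phosphoinositide synthesis rose and 3 fell, a share near that of all genes, with the acyltransferase gene Agpat2 (-0.40) and the phospholipase gene Pla2g6 (-0.63) lower periportally and the acyl-CoA synthetase gene Acsl3 (0.38) higher. Tmc4, though sparse, was periportal in 4 of 4 sections (0.67, adjusted p = 0.00894), unlike its neighbour Mboat7. All values in brackets are log2 fold changes, periportal over pericentral. Bile duct genes moved with this comparison too: 5 of 5 tested rose, and the summed level of the 6 listed was 111 to 405 CPM in the periportal and 32.8 to 153 CPM in the pericentral zones, and 7 of 8 endothelial genes fell. Upward calls were also made for 5 of 8 hepatocyte genes (median 0.31), 7 of 12 LAM genes (median 0.43) and 4 of 8 monocyte and macrophage genes (median 0.23). Their part in the zone values of the members was not tested.

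Whether the periportal gradient of Hsd17b13 differed between the groups could not be settled from 4 sections. The periportal over pericentral ratio was 2.90 in MAFL-1, 2.81 in MAFL-2, 4.10 in MASH-1 and 2.57 in MASH-2, so the MASH sections had both the steepest and the flattest gradient. The interaction was 0.25 on the log2 scale (95% interval -0.0033 to 0.51, unadjusted p = 0.0528, adjusted p = 0.582), where 0.525% of genes passed. In the same test 10 of the 10 periportal check genes were positive (4 passed, median 0.33) and 1 of the 10 pericentral ones was (1 passed downward, median -0.48). Over 15 alternatives, the interaction of Hsd17b13 gained the call in 1 and changed sign in 2. Without MASH-2 the interaction of Hsd17b13 was 0.50 and without MASH-1 it was -0.0067, each with 1 MASH section left. Ranking the zones within bins of spot depth turned it to -0.26 (adjusted p = 0.917). The interactions of Tm6sf2, Mboat7 and Gckr were 0.15, 0.06 and 0.10 (adjusted p = 0.852, 0.945 and 0.838).

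**Figure D4:**
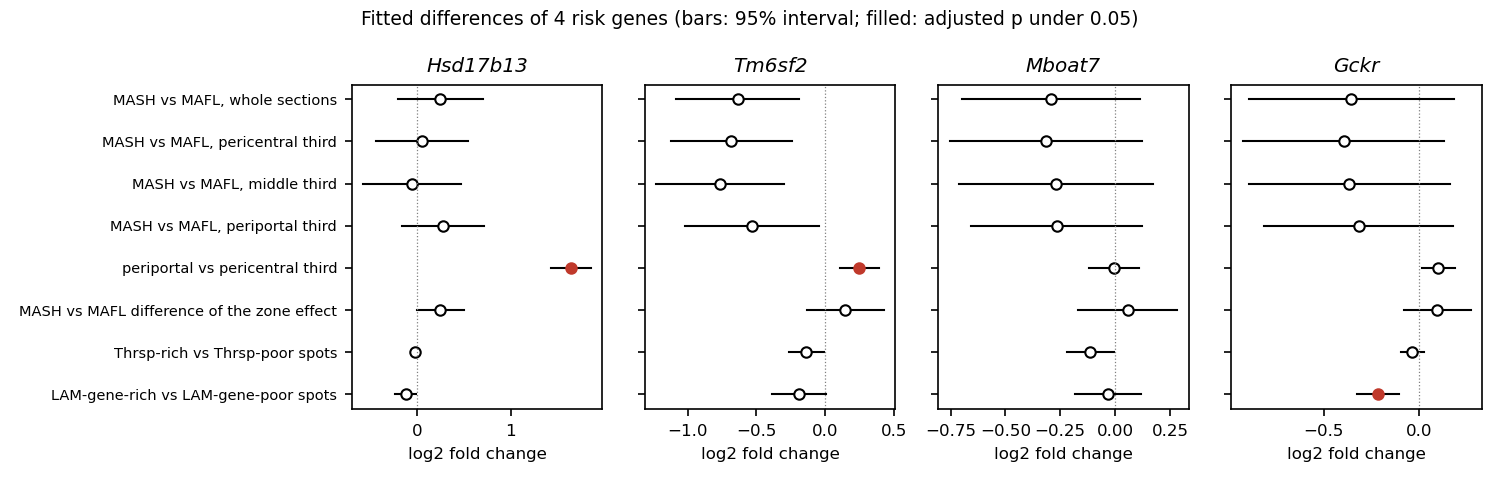
Fitted differences of the 4 tested risk genes. Points are edgeR log2 fold changes with 95% intervals for 8 comparisons, each panel with its own linear axis; filled points passed at an adjusted p under 0.05, namely Hsd17b13 and Tm6sf2 between lobule zones and Gckr in LAM-gene-rich against LAM-gene-poor spots, the last under TMM scaling but not under library totals.

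Within each zone, no member passed between MASH and MAFL, where 0.602% of genes passed in the pericentral, 0.437% in the middle and 1.27% in the periportal zone. Zones are ranks within a section, not matched scores: the MASH-1 periportal zone began at -2.40, near where the MAFL-1 pericentral zone ended (-2.38). Between groups, the 10 periportal check genes had median log2 fold changes of -0.53, -0.47 and -0.15 from the pericentral to the periportal zone. The 10 pericentral check genes had 0.56, 0.59 and -0.17. The part of this shift in the member values was not tested. Tm6sf2 was lower in both MASH sections in all 3 zones (as 16.3, 18.4 and 19.3% of genes were), with log2 fold changes of -0.68, -0.76 and -0.53 from pericentral to periportal (adjusted p = 0.139, 0.141 and 0.248). In the pericentral zone its log2 fold change was -0.80 without MASH-1, where MASH-2 alone stands for the group. That of Gckr was then -0.79, against -0.40 (adjusted p = 0.406) with all sections. Under the alternatives in this zone, Tm6sf2 gained the call in 2 of 15 and Gckr in 1 of 16. Without a filter on low counts Tm6sf2 passed in the pericentral (adjusted p = 0.0169) and the middle zone (adjusted p = 0.0098). With the filter, it passed in the middle zone with crossed section numbers as a block, an alternative added after seeing the data (-0.75, adjusted p = 0.0195). In the periportal zone Hsd17b13 was higher in both MASH sections, as were 31.6% of genes, by a log2 fold change of 0.28 (95% interval -0.16 to 0.71, adjusted p = 0.484), and in the pericentral and middle zones its groups overlapped (0.06 and -0.05). Mboat7 had log2 fold changes of -0.32, -0.27 and -0.27 (adjusted p = 0.42, 0.523 and 0.453).

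The share of spots with at least 1 UMI depends on depth, so it is given before and after thinning. For Tm6sf2 the share was 27.4, 41.4, 33.1 and 31.0% in the 4 sections. After thinning to 5000 UMIs it was 9.75, 11.8, 8.46 and 7.31%, with both MASH sections below both MAFL sections, an order not counted here over all genes. For Mboat7 it was 42.7, 46.8, 54.2 and 44.4% before and 18.9, 14.6, 15.2 and 11.8% after thinning. For Gckr it was 79.6, 90.2, 90.4 and 77.4% before and 44.1, 51.2, 44.0 and 33.0% after. In Mboat7 the groups overlapped after thinning, and in Gckr MASH-2 was again the lowest section, with MAFL-1 and MASH-1 nearly level. Hsd17b13 was seen in 99.0 to 99.6% of the spots of the sections before and 89.6 to 95.7% after thinning, and reached 126 UMIs in 1 spot of MASH-2.

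The series title names Thrsp-positive hepatocytes and lipid-associated macrophages, so spots were also compared by these. Thrsp-rich and Thrsp-poor spots were the highest and lowest of 3 equal classes by Thrsp, ranked within bins of depth of each lobule zone of each section. No member passed between them, where 0.627% of 12594 genes did. Hsd17b13 was at 807 CPM in Thrsp-poor and 797 in Thrsp-rich spots of MAFL-1, 629 and 630.4 in MAFL-2, 849 and 827 in MASH-1, and 992 and 995 in MASH-2. The log2 fold change was -0.02 (95% interval -0.06 to 0.01, adjusted p = 0.832). Tm6sf2 had -0.14 (unadjusted p = 0.0334, adjusted p = 0.551), Mboat7 -0.11 (unadjusted p = 0.0413, adjusted p = 0.585) and Gckr -0.04 (adjusted p = 0.852). In the same spots 3 droplet genes rose, Cidea (0.36), Cidec (0.22) and Fitm1 (0.14), as did Fasn (0.22, adjusted p = 0.0021). Cell type genes moved too: 4 of 4 erythroid, 2 of 8 Kupffer cell and 1 of 8 monocyte and macrophage genes fell. Calls were also made downward for 1 of 8 hepatocyte genes and upward for 1 of 5 tested bile duct genes. Among 12 tested LAM genes 1 rose and 1 fell. The part of these cells in the member values was not tested. Pnpla3, with 3 UMIs in Thrsp-rich and 2 in Thrsp-poor spots over all sections, could not be compared.

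**Figure D5:**
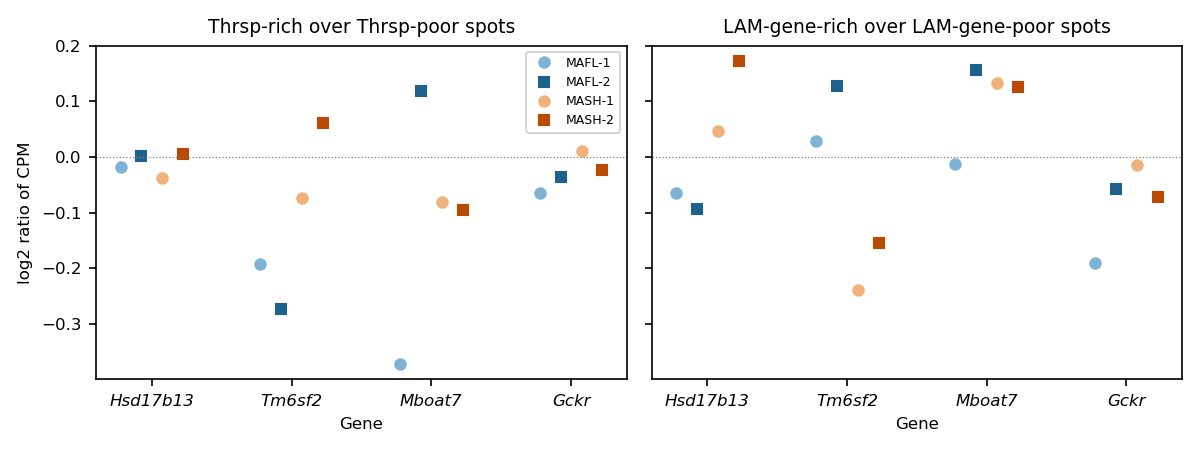
Risk genes by spot class within sections. Points are log2 ratios of CPM, Thrsp-rich over Thrsp-poor spots (left) and LAM-gene-rich over LAM-gene-poor spots (right), for each section; Hsd17b13 sits near 0 on the left, Gckr lies below 0 in 4 of 4 sections on the right, and on the right the MAFL and MASH sections of Hsd17b13 and of Tm6sf2 fall on opposite sides of 0 on this CPM scale, whereas under TMM Hsd17b13 was below 0 in both groups (-0.14 and -0.05).

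LAM-gene-rich spots were the top 10% by the share of 13 LAM genes and LAM-gene-poor spots the bottom 50%, ranked in the same bins. Gckr was at 113 CPM in LAM-gene-poor and 98.9 in LAM-gene-rich spots of MAFL-1, 131 and 126 in MAFL-2, 117 and 116 in MASH-1, and 86.2 and 82.0 in MASH-2. It fell in LAM-gene-rich spots by 0.22 on the log2 scale (95% interval -0.33 to -0.11, SE 0.05, adjusted p = 0.0048), where 17.6% of 12530 genes passed and 9.39% passed downward. It was lower in 4 of 4 sections, as were 5.76% of genes. The call rested on the scaling: library totals in place of TMM moved the median of all genes from -0.03 to 0.12 and gave Gckr -0.08 (adjusted p = 0.349), and it was also lost with DESeq2 (adjusted p = 0.115), on genes of at least 20 CPM (adjusted p = 0.131), with thinned spots (adjusted p = 0.54), with classes ranked over the whole section (adjusted p = 0.135) and in the MASH sections alone (adjusted p = 0.185). Hepatocyte genes fell beside it under TMM, 7 of 8 with a median of -0.24, while their summed level went from 111433 to 109157 CPM in MAFL-1, 108568 to 106483 in MAFL-2, 111642 to 107228 in MASH-1 and 113666 to 96301 in MASH-2. Of 8 stellate and fibroblast genes 4 rose, and of 8 monocyte and macrophage genes 3 rose. Erythroid genes summed to 1424 CPM in LAM-gene-poor and 9657 in LAM-gene-rich spots of MAFL-1 and to 961 and 5606 in MAFL-2. In MASH-1 they summed to 3411 and 5278 CPM and in MASH-2 to 1369 and 1031, with 0 of 4 passing. In the same contrast 4 of 4 tested bile duct genes rose, with the 6 listed summing to 24.7 to 138 CPM in LAM-gene-poor and 276 to 788 CPM in LAM-gene-rich spots. Spp1, encoding osteopontin, is in both lists. It counts in this sum, so part of the rise of the sum came from how the spots were chosen. The 4 tested bile duct genes do not include it. The part of these cells in the Gckr value was not tested.

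The other members did not pass between LAM-gene-rich and LAM-gene-poor spots. Hsd17b13 had a log2 fold change of -0.12 (adjusted p = 0.121), which passed without MASH-2 (-0.13, adjusted p = 0.0142), without a filter on low counts and in the MAFL sections alone, and which turned to 0.02 with library totals and to 0.24 (adjusted p = 0.0256) with classes ranked over the whole section, where the lobule zones are not balanced. Tm6sf2 had -0.19 (adjusted p = 0.183), which passed with classes ranked over the whole section (-0.28, adjusted p = 0.0344), and Mboat7 -0.03 (adjusted p = 0.822). No member passed in the test of whether this contrast differed between MASH and MAFL, where 0.503% of genes did. Among the partners, Mttp (-0.28), Apob (-0.22), Hsd17b11 (-0.32), Mlxipl (-0.27) and Srebf1 (-0.21) fell under TMM scaling, and 12 of 24 genes of glucose handling fell with Gckr while none rose.

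For each member the genes with the most similar levels were taken from 4013 genes of at least 20 CPM, by Pearson correlation of log2(CPM + 1) over the 12 libraries of section and zone. These libraries share their sections, so the values are descriptions. Near to Hsd17b13 were Uox, urate oxidase (0.977), and Alb (0.960). Nearest to Tm6sf2 were Slc7a2, a cationic amino acid transporter (0.969), Igfals (0.966), which binds circulating insulin-like growth factors, and Got1, the cytosolic aspartate aminotransferase (0.961). Nearest to Mboat7 were Ube2v1 (0.972), Pcyt2, of phosphatidylethanolamine synthesis (0.970), and Rcl1 (0.966), and nearest to Gckr were Tef, a clock-driven transcription factor (0.971), Shmt2, of mitochondrial serine and glycine metabolism (0.967), and Tmem25 (0.965). Uox and Alb climbed with Hsd17b13 from pericentral to periportal in 4 of 4 sections, Uox from 1021 to 1418 CPM in MAFL-1 for example. The genes nearest to Mboat7 and Gckr were instead set apart by a low MASH-2, as for Tmem25 at 10.7 to 11.6 CPM in MASH-2 and 22.2 CPM or more elsewhere. No neighbours are given for Pnpla3, whose 11 UMIs are too few.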

How the data were processed

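Space Ranger 1.2.2 is named in the file headers and mm10 in the submitters' processing notes. The deposited matrices hold counts, the unscaled UMIs of each gene in each spot. Spots under 500 UMIs were left out, and counts were summed per section, lobule zone or spot class then tested by robust quasi-likelihood fits in edgeR 4.0.16 (scaled by TMM, filtered by filterByExpr, Benjamini-Hochberg adjustment over all tested genes) in R 4.3.3. Lobule and spot-class comparisons had the section as a block, and the genes a class was chosen by did not enter these comparisons. The group tests within a zone did not leave out Cyp2f2 and Cyp2e1. Ties in a ranking were broken at random. DESeq2 1.42.0, other scalings, filters, thinning and left-out sections were alternatives. Leaving out a section leaves its group with only the other section, so group fits then hold no spread within that group. Python 3.11.15 did the sums. The fits were tested on simulated data. The floor of a section is 3 UMIs. Of 253 listed symbols 252 were found. Differences between sections of a group far exceeded counting error (chi-square per degree of freedom 67.7 and 116). Named genes were the members, a fixed set of regulators and partners, 3 similar genes per member and up to 4 genes of smallest p per list, of which some are not reported here. Members and lists were chosen with earlier results of these data known.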

Additional observations from a re-analysis of the deposited data

Results flagged for a closer look

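In LAM-gene-rich against LAM-gene-poor spots, the CPM ratios of the MAFL and the MASH sections lay on opposite sides of 1 for 2 members. The classes differed in make-up between the groups. From LAM-gene-poor to LAM-gene-rich spots, the 8 monocyte and macrophage genes went from 167 to 215 CPM in MAFL-1 and 207 to 263 in MAFL-2. They went from 464 to 896 CPM in MASH-1 and 481 to 1352 in MASH-2. The 6 bile duct genes, Spp1 included, went from 31.8 to 405, 24.7 to 276, 35.7 to 309 and 138 to 788 CPM. The part of these cells in the ratios was not tested. The Hsd17b13 ratio was 0.957 and 0.937 in MAFL-1 and MAFL-2 and 1.03 and 1.13 in MASH-1 and MASH-2, a difference of the mean log2 ratios of 0.19. The edgeR interaction of this contrast was 0.13 (adjusted p = 0.839), and 0.40 (adjusted p = 0.0278) with classes ranked over the whole section. The sides depend on the scaling: under TMM both groups were below 0 for Hsd17b13, at a log2 fold change of -0.14 in the MAFL sections alone (adjusted p = 1.2e-04) and -0.05 in the MASH sections alone (adjusted p = 0.866).

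The Tm6sf2 ratio ran the other way, 1.02 and 1.09 in the MAFL sections and 0.847 and 0.899 in the MASH sections, a difference of -0.27. Under TMM the log2 fold change was 0.02 in the MAFL sections alone (adjusted p = 0.962) and -0.36 in the MASH sections alone (adjusted p = 0.0632). The interaction was -0.35 (adjusted p = 0.681), and these ratios rest on 68 to 113 Tm6sf2 UMIs in the LAM-gene-rich spots of each section.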

How the results depend on the processing

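Of 543 member values under alternatives, 485 kept their direction and side of 0.05, 12 lost the call, 13 gained it and 33 changed sign, 1 of these past 0.05. The counts of called genes moved far more. With DESeq2 they were 627 for whole sections, 1683 for zones, 281, 256 and 343 for the groups within the pericentral, middle and periportal zones, 8 for Thrsp spots and 833 for LAM spots. With no filter on low counts they were 1153, 118 for the zone interaction, and 998, 954 and 1177 in the zones. On genes of at least 20 CPM they were 16, 1669 for zones, 13, 16 and 37 in the zones, 26 for Thrsp and 329 for LAM spots. Library totals alone gave 29 in the middle zone, totals without Mup genes 40 for whole sections and 41 and 24 in the pericentral and middle zones, and RLE factors 108 in the pericentral zone. Thinned spots gave 1235 for zones, 14 for the interaction, 139 and 76 in the pericentral and periportal zones, 0 for Thrsp and 497 for LAM spots. In that edgeR fit of 0 calls, 515 genes had an unadjusted p under 0.05. Ranking zones within depth bins gave 22 for the interaction and 82 in the middle zone, ranking classes over the whole section 18 for Thrsp spots, and spots of at least 2000 UMIs 49. The MAFL sections alone gave 1525, 34 and 852 for zones, Thrsp and LAM spots, and the MASH sections alone 1921 for zones and 150 for Thrsp spots.

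Leaving out 1 section gave 20 to 535 calls for whole sections (20 without MAFL-1, 24 without MASH-2, 535 without MASH-1), 7 to 447 for the interaction (7 without MAFL-2, 24 without MAFL-1, 219 without MASH-2, 447 without MASH-1), 27 to 1517 in the pericentral zone, 19 to 368 in the middle and 80 to 622 in the periportal zone (lowest without MAFL-1, MAFL-1 and MASH-2, highest without MASH-1 in each; 355 without MASH-2 in the pericentral and 276 without MAFL-2 in the periportal zone), 21 to 94 for Thrsp spots (lowest without MASH-1, 45 without MASH-2) and 1101 to 1972 for LAM spots (lowest without MASH-1).

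Sections of the same number share only that number, with a correlation of their deviations of -0.19. As a replicate block it left 0 edgeR calls for whole sections (1901 genes at an unadjusted p under 0.05, and 627 calls by DESeq2 without the block), 19 in the middle and 71 in the periportal zone. The single-group fits, the LAM interaction and a block of crossed numbers were added after seeing the data. With the crossed block the counts were 781 for whole sections and 403, 703 and 1072 in the zones.

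The member values that changed sign were mostly near 0, and the cause was not tested. For Mboat7 between zones they were 0.010 (genes of at least 20 CPM), 0.088 (thinned), 0.020 (MASH alone) and 0.0084 and 0.025 without MAFL-2 and MASH-1, in a leave-one-out range of -0.050 to 0.025. The zone interaction became -0.26 for Hsd17b13 and -0.056 for Mboat7 within depth bins, -0.025 for Mboat7 with thinned spots, and with a section left out ran from -0.0067 to 0.50 for Hsd17b13 and from -0.032 to 0.18 for Mboat7. Hsd17b13 between groups ran from -0.18 to 0.24 in the pericentral and from -0.27 to 0.18 in the middle zone with a section left out, and was 0.045, 0.0044 and 0.22 in the middle zone with library totals, totals without Mup genes and depth bins. Mboat7 in Thrsp spots became 0.061 when thinned. In LAM spots Hsd17b13 became 0.018, 0.013 and 0.24 with library totals, totals without Mup genes and whole-section ranking, Mboat7 became 0.11 and 0.10 with the same totals, 0.064 on genes of at least 20 CPM, 0.076 thinned, 0.084 with whole-section ranking and 0.011 in MAFL alone, and Tm6sf2 became 0.022 in MAFL alone. The LAM interaction of Gckr was -0.35 when thinned and -0.066 to 0.049 with a section left out, and that of Mboat7 was 0.055 with library totals and -0.11 to 0.045 with a section left out. Library totals moved the median of all genes to 0.11 for whole sections and 0.13 in the pericentral zone. At 15430.5 to 25291 UMIs per spot, depth limits Pnpla3 to a statement of near absence and Tm6sf2 and Mboat7 to sums over spots.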

Other observations

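Over the 12 libraries of section and zone, the log2(CPM + 1) levels of Mboat7 and Gckr had a Pearson correlation of 0.761, Tm6sf2 and Gckr one of 0.633 and Hsd17b13 and Tm6sf2 one of 0.042. The libraries share their sections, and MASH-2 was the lowest section for both Mboat7 and Gckr.

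With spots thinned to 5000 UMIs, 2 of the 5 members were seen together in 44.1, 46.0, 42.3 and 37.9% of the spots of the 2 MAFL and then the 2 MASH sections, and 3 of them in 11.9, 11.5, 9.08 and 5.31%. No spot held all 5. The share with 3 was lowest in MASH-2.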
